A study of Mus musculus with 4 samples.

Results

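Retinol, or vitamin A, travels in blood bound to the carrier protein RBP4, is taken up by cells in part through the receptor STRA6, and is stored as retinyl ester, which the enzyme LRAT makes. Alcohol dehydrogenases such as ADH1 and ADH7 can oxidise retinol to retinaldehyde. The retinaldehyde dehydrogenases ALDH1A1, ALDH1A2 and ALDH1A3 then make retinoic acid, the ligand of the nuclear receptors RAR. In the lung, lipid-laden fibroblasts next to alveoli are known as a site of retinyl ester storage, and retinoic acid takes part in forming alveoli. The 8 genes of these steps, Rbp4, Stra6, Lrat, Adh1, Adh7, Aldh1a1, Aldh1a2 and Aldh1a3, were taken by symbol from the 31055 features of a single-cell expression matrix, and all 8 were found. A wider list held 59 further retinoid genes in the matrix, of which 44 had at least 30 transcripts, counted as unique molecular identifiers (UMIs).

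The lung cells were from mice aged about 8 weeks and given tamoxifen. Their genotype was Gli1_Cre_ERT2/WT; Rosa_mTmG/WT, so every cell carried 1 inducible Cre allele at Gli1, a hedgehog target gene, and 1 reporter allele that switches to green fluorescent protein after recombination. Cells negative for CD45, a leukocyte protein, and CD31, an endothelial protein, were sorted and sequenced from the 3′ end of transcripts. The labels name the strain as C57BL/6J in one field and B6D2F1/J in another, and do not say how many animals were pooled. The 4 sample labels carried the same description, with 65156149 to 74901791 reads each, and the matrix does not say which cell came from which. The cells were therefore treated as 1 sample, no test between groups was possible, and each interval below covers counting error only.

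Of 11118 barcodes, 8933 were kept, with 76127432 UMIs and a median of 7967 UMIs a cell. Levels are given as CPM, the standard scaling of counts to the same total, of the UMIs summed over a class of cells, with an exact Poisson 95% interval. Classes were named from marker genes, after clustering without any gene of the retinoid list. They held 2712 adventitial-like fibroblasts (markers such as Pi16, Clec3b and Dcn), 1851 alveolar-like fibroblasts (Inmt, Npnt, Tcf21), 427 peribronchial- or myofibroblast-like cells (Hhip), 179 smooth muscle-like cells, 208 mesothelial-like cells (Msln, Upk3b), 1653 alveolar type 2-like, 209 alveolar type 1-like, 238 ciliated-like and 74 club- or secretory-like cells. A cluster of 653 cells, led by Bmp7, Lamc3, Notum and Adh7, had low scores for both the adventitial and the alveolar list, stayed unnamed, and is called the Bmp7-Notum cluster. Despite the sort, 91 leukocyte-like cells and a cluster of 66 cells with endothelial and haemoglobin genes were present.

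The promoters of the members that divided most clearly over the classes are shown to let the sequences be compared beside their levels. Each is the 250 bases before the RefSeq transcription start on GRCm38.p6, read 5′ to 3′ on the gene's strand. Capitals mark TATAAA, the TATA box, or AGGTCA, the core of many nuclear receptor sites, or the motif CCAAT, on either strand. The windows are chr19:38124812-38125061 (minus strand) for Rbp4, chr3:82903975-82904224 (minus strand) for Lrat, chr3:138217523-138217772 (plus strand) for Adh7, chr19:20601718-20601967 (plus strand) for Aldh1a1 and chr9:71215539-71215788 (plus strand) for Aldh1a2.
Rbp4: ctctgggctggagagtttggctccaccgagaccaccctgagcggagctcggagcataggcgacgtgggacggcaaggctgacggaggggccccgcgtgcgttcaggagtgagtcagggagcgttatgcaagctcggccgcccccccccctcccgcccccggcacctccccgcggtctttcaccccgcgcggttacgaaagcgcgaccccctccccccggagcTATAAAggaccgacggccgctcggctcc
Lrat: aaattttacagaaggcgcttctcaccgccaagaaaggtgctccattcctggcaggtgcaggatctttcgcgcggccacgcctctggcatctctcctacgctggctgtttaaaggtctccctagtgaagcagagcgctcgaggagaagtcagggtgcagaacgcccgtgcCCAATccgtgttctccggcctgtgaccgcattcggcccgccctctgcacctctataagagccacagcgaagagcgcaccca
Adh7: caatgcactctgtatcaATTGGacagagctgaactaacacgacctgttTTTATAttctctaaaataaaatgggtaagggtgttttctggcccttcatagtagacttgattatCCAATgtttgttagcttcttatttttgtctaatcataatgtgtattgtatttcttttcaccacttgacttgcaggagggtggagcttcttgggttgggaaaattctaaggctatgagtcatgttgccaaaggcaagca
Aldh1a1: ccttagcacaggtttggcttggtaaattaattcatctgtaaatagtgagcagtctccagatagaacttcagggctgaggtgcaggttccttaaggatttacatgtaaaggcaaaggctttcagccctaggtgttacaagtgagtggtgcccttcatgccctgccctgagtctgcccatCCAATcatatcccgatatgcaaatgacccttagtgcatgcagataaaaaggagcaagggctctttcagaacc
Aldh1a2: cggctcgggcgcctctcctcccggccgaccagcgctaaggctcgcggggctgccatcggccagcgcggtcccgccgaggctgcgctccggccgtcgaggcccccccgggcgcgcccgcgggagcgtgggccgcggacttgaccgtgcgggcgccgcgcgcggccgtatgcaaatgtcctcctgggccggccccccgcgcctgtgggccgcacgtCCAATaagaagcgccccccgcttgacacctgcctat
The Rbp4 window held TATAAA starting 28 bases before the start, and was 70.8% G or C. The Aldh1a2 window was 77.6% G or C, against 46.4% for Aldh1a1, 59.2% for Lrat and 38% for Adh7, where the median of 32851 mouse windows was 52.4%. CCAAT lay 36 bases before the start of Aldh1a2, 72 before Aldh1a1 and 81 before Lrat, and was found in 33.8% of all windows. The Adh7 window held TTTATA 202 bases before its start and 2 CCAAT matches. TATAAA was found on either strand in 12.4% of all windows. AGGTCA, present in 14% of windows, was in none of the 7 member windows, those of Stra6 and Adh1 included. No window was used for Aldh1a3.

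Transport of retinol. Rbp4 (ENSMUSG00000024990, chr19:38116629-38125281, minus strand, mm10), the blood carrier of retinol best known from liver, was mainly a fibroblast transcript here. It stood at 978 CPM (953 to 1005) in the Bmp7-Notum cluster, 791 (780 to 802) in adventitial-like and 210 (201 to 219) in alveolar-like fibroblasts. The 41 proliferating-like cells had 311 CPM (272 to 354), club-like cells 97.7 (85.5 to 111), leukocyte-like cells 74.7 (56.3 to 97.2), and the other named classes 29.6 to 65.0 CPM. Adventitial-like fibroblasts held 66.5% of its UMIs. Rbp4 had a UMI in 94.3% of Bmp7-Notum cells, 87.6% of adventitial-like and 26.9% of alveolar-like fibroblasts, against 25.5% of alveolar type 2-like cells. With each cell thinned to 2000 UMIs these shares were 75%, 62.9%, 17.3% and 7.05%. The level in club-like cells was 12.4% of that in adventitial-like fibroblasts, while 10 adventitial marker genes together stood in club-like cells at 1.05% of their adventitial level.

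Stra6 (ENSMUSG00000032327, chr9:58063788-58153996, plus strand), the cell-surface receptor for RBP4, was close to the limit of detection. It had 78 UMIs in all kept cells, and 51 of them lay in the Bmp7-Notum cluster, at 9.05 CPM (6.74 to 11.9). Adventitial-like fibroblasts had 16 UMIs and mesothelial-like cells 3, at 0.626 and 1.62 CPM, with overlapping intervals. No UMI was found in 1851 alveolar-like fibroblasts, which allows up to 0.283 CPM by a floor of 3 UMIs, and none in club-like, alveolar type 1-like or smooth muscle-like cells.

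Storage. Lrat (ENSMUSG00000028003, chr3:82892579-82903973, minus strand), the enzyme that makes retinyl esters, was highest in alveolar-like fibroblasts, which held 59.7% of its UMIs. It stood at 225 CPM (213 to 238) in the Bmp7-Notum cluster, 17.9 (16.3 to 19.6) in adventitial-like and 334 (323 to 345) in alveolar-like fibroblasts. It had a UMI in 8.04% of adventitial-like and 65.6% of alveolar-like fibroblasts, against 5.26% of alveolar type 2-like cells. Thinned to 2000 UMIs these were 2.51%, 41.9% and 1.40%. Peribronchial-like cells had only 3 UMIs.

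Among epithelial classes Lrat was highest in alveolar type 1-like cells, at 82.1 CPM (69.7 to 96.0), which moved with fibroblast RNA. In these cells 9 alveolar fibroblast markers together stood at 33.7% of their level in alveolar-like fibroblasts, none of them at 0, and Lrat stood at 24.6% of its own. The alveolar type 1-like cells were then split by their fibroblast markers, a step added after the data were seen. In the 71 alveolar type 1-like cells with at most 2000 CPM of fibroblast markers, Lrat had 1 UMI, or 1.75 CPM (0.0444 to 9.76). In the other 138 cells it had 155 UMIs, or 117 CPM (99.0 to 136). Adh1 divided in the same manner, with 3.50 CPM in the cells poor in fibroblast markers and 103 CPM in the others. Aldh1a1 had 77.1 CPM (56.0 to 103) in the cells poor in them and 245 CPM (219 to 273) in the others. In alveolar type 2-like cells Lrat stood at 2.06% of its alveolar fibroblast level and those fibroblast markers at 2.43%.

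**Figure D1:**
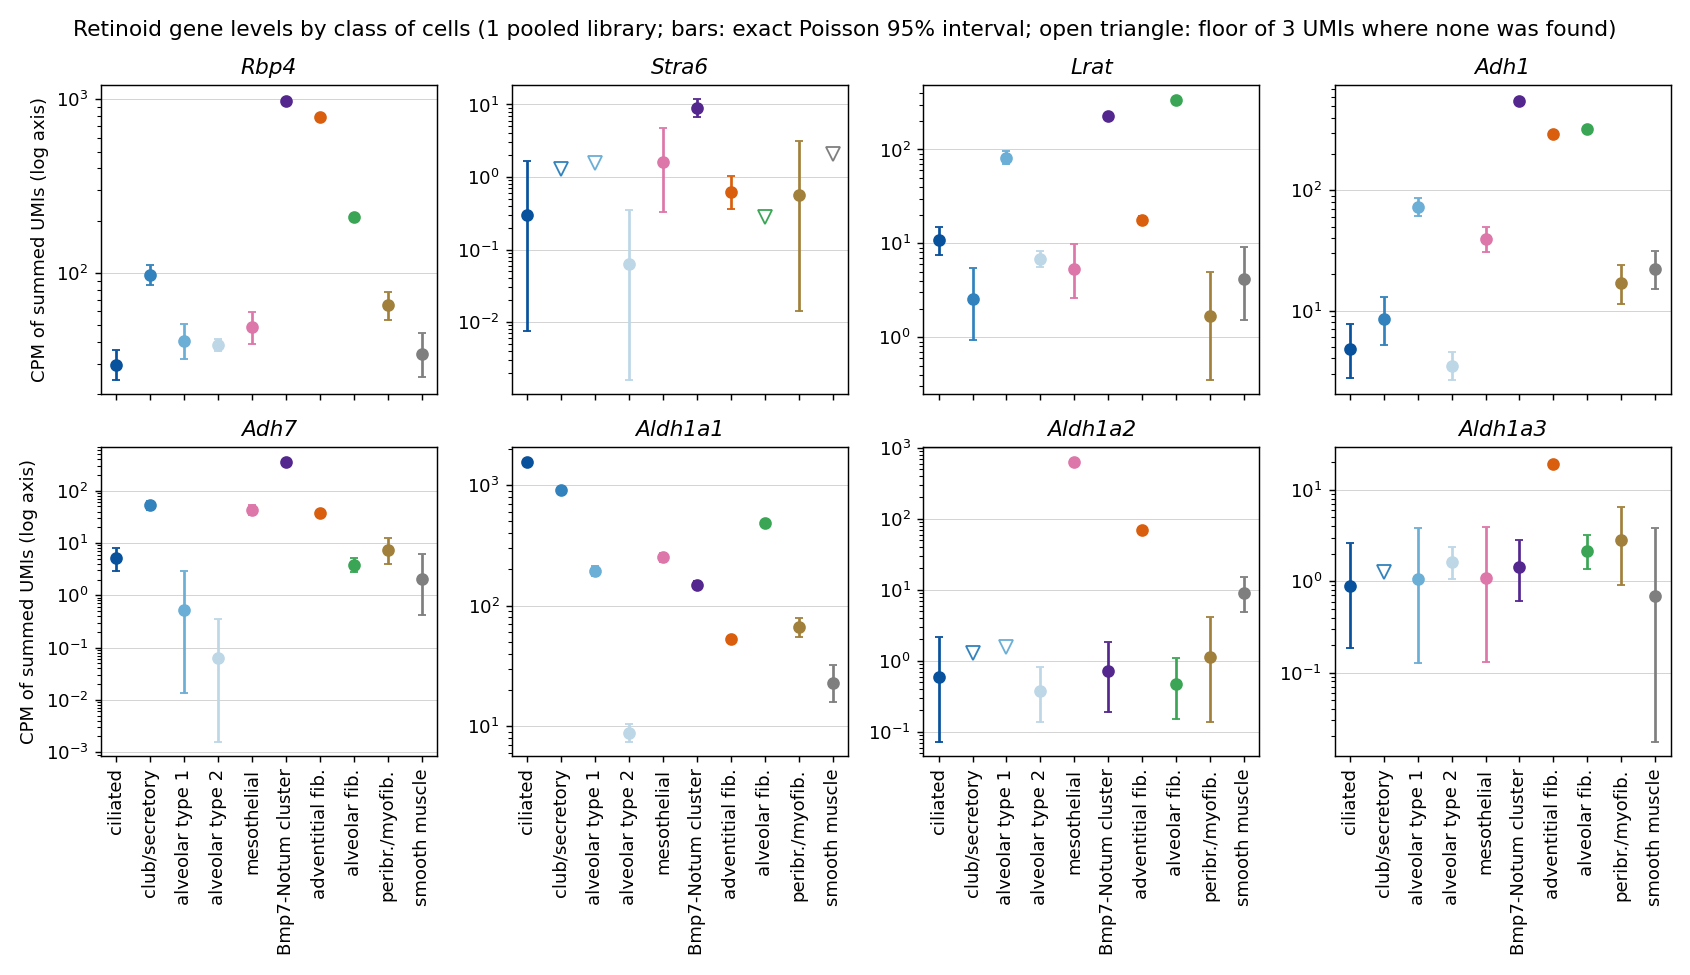
Level of each gene, in CPM of summed UMIs on a log axis, in 9 named classes and the Bmp7-Notum cluster (x axis). Points are levels, bars exact Poisson 95% intervals, and open triangles the floor of 3 UMIs where no UMI was found. Lrat is highest in alveolar-like fibroblasts at 334 CPM, Aldh1a2 in mesothelial-like cells at 625 CPM and Aldh1a1 in ciliated-like cells at 1557 CPM.

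Retinol oxidation. Adh1 (ENSMUSG00000074207, chr3:138260991-138290698, plus strand) differed little between adventitial-like and alveolar-like fibroblasts as whole classes and was low in peribronchial-like ones. It stood at 556 CPM (537 to 576) in the Bmp7-Notum cluster, 292 (286 to 299) in adventitial-like and 326 (315 to 337) in alveolar-like fibroblasts. By cluster it ran from 125 to 487 CPM in adventitial-like fibroblasts, and stood at 366 and 253 CPM in the 2 alveolar-like clusters. It had a UMI in 96.2% of Bmp7-Notum cells, 78.2% of adventitial-like and 72.3% of alveolar-like fibroblasts, against 3.02% of alveolar type 2-like cells. Peribronchial-like cells, with 16.9 CPM, and smooth muscle-like cells, with 22.2 CPM, had little of it and their intervals overlapped. Mesothelial-like cells had 39.4 CPM (30.9 to 49.5), 13.5% of the adventitial level. The 10 adventitial markers together stood there at 23.1% of their adventitial level, and single markers at 0.604% to 48.4%.

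Adh7 (ENSMUSG00000055301, chr3:138217760-138233382, plus strand), the class IV enzyme known from stomach and other surface epithelia, was concentrated in the Bmp7-Notum cluster. That cluster, with 7.31% of the kept cells, held 61.1% of the Adh7 UMIs, at 362 CPM (346 to 378). Club-like cells had 52.5 CPM (43.6 to 62.6), mesothelial-like cells 43.2 (34.2 to 53.7) and adventitial-like fibroblasts 37.2 (34.9 to 39.7), and their neighbours in this order overlapped. Alveolar-like fibroblasts had 3.86 CPM, and alveolar type 2-like cells 1 UMI. Adh7 was found in 82.4% of Bmp7-Notum cells, against 0.0605% of alveolar type 2-like cells, whose median depth was 9428 UMIs a cell and that of the cluster 8361. Adh7 was among the leading genes of the cluster, although clustering did not use it.

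**Figure D2:**
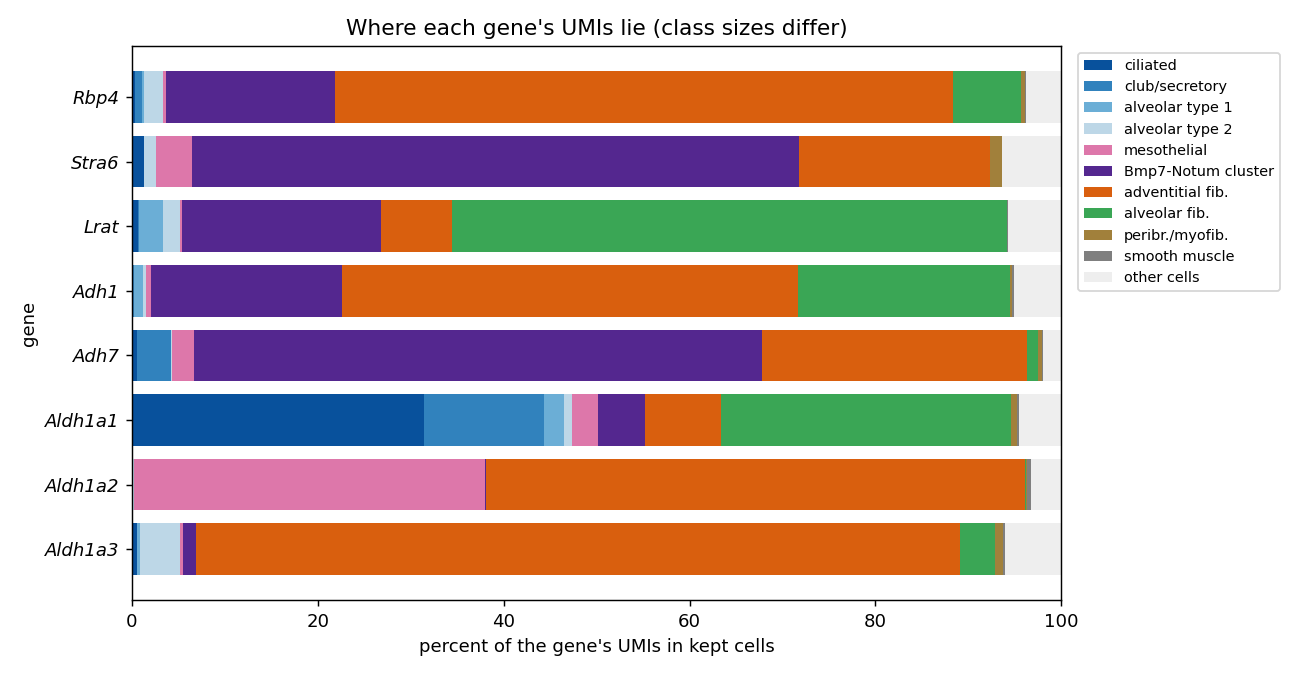
Percent of each gene's UMIs (x axis) that lay in each class, 1 bar a gene. Classes differ in size and depth, so a share is not a level. The Bmp7-Notum cluster takes 61.1% of Adh7, alveolar-like fibroblasts 59.7% of Lrat and adventitial-like fibroblasts 66.5% of Rbp4.

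Retinoic acid synthesis. The 3 retinaldehyde dehydrogenases had different leading classes. Aldh1a1 (ENSMUSG00000053279, chr19:20492715-20643465, plus strand) was highest in ciliated-like cells, 1557 CPM (1515 to 1600), then club-like cells, 906 (868 to 945), and alveolar-like fibroblasts, 486 (473 to 500). Mesothelial-like cells had 252 CPM (230 to 276), the Bmp7-Notum cluster 148 (139 to 159), adventitial-like fibroblasts 52.4 (49.7 to 55.3) and alveolar type 2-like cells 8.80 (7.41 to 10.4). It had a UMI in 99.2% of ciliated-like cells and 81.7% of alveolar-like fibroblasts, against 7.08% of alveolar type 2-like cells. Thinned to 2000 UMIs these were 88.2%, 55.6% and 1.58%. The 8 ciliated markers together stood in alveolar-like fibroblasts at 1.12% of their ciliated level, where Aldh1a1 stood at 31.2%. The neighbouring gene Aldh1a7, a close relative of Aldh1a1, was present in epithelial classes: 93.3 CPM in alveolar type 2-like, 83.6 in ciliated-like and 152 in club-like cells, against 0.448 in fibroblast-like cells. Of the 451 stretches of 50 bases in the last 500 bases of the Aldh1a1 transcript, none occurs in the Aldh1a7 transcript. Over the whole Aldh1a1 transcript 151 of 2309 such stretches do. The last 500 bases of the 2 transcripts were 82.3% identical over 485 aligned bases.

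Aldh1a2 (ENSMUSG00000013584, chr9:71215789-71296243, plus strand) was highest in mesothelial-like cells, 625 CPM (589 to 662), and second in adventitial-like fibroblasts, 69.7 CPM (66.5 to 73.0). Adventitial-like fibroblasts, being more numerous, held 58.0% of its UMIs and mesothelial-like cells 37.7%. Alveolar-like fibroblasts had 5 UMIs, 0.471 CPM (0.153 to 1.10), and the Bmp7-Notum cluster 4. No UMI was found in club-like or alveolar type 1-like cells. It was detected in 95.2% of mesothelial-like cells and 29.4% of adventitial-like fibroblasts, against 0.302% of alveolar type 2-like cells. Thinned to 2000 UMIs these were 65.0%, 12% and 0.0608%. The level in adventitial-like fibroblasts was 11.1% of the mesothelial one, while 8 mesothelial markers together stood there at 0.177%.

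Aldh1a3 (ENSMUSG00000015134, chr7:66390890-66427517, minus strand) was the scarcest of the 3, with 597 UMIs, of which 491 lay in adventitial-like fibroblasts at 19.2 CPM (17.6 to 21.0). The proliferating-like cells had 3 UMIs, 4.13 CPM (0.851 to 12.1), and every other named class had at most 2.82 CPM, with overlapping intervals from one to the next in the order of levels. Club-like cells had no UMI.

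Adventitial-like against alveolar-like fibroblasts. The comparison asked how the steps divide between the 2 main fibroblast classes. Aldh1a2 was 148-fold (63.3 to 456) higher in adventitial-like than in alveolar-like fibroblasts, Adh7 9.64-fold (7.05 to 13.5), Aldh1a3 8.87-fold (5.84 to 14.1) and Rbp4 3.77-fold (3.61 to 3.94), the intervals being exact conditional binomial ones. Lrat was lower, at a ratio of 0.0537 (0.0486 to 0.0592), as was Aldh1a1, at 0.108 (0.101 to 0.115). Adh1 had a ratio of 0.897 (0.861 to 0.934). Over 9 alternatives it ranged from 0.675 to 1.04, and 7 of them gave a ratio under 1. Thus, of the 7 members with at least 30 UMIs, 4 had a ratio of 2 or more, where 9.88% of 12452 genes had, and 2 a ratio of 0.5 or less, where 10.3% had. The median ratio of the 7 was 3.77, and of all genes 0.918. The direction of each of these 6 held in all alternatives run, but the sizes did not: the Rbp4 ratio ranged from 1.27 to 4.46, that of Adh7 from 1.81 to 25.8, and that of Lrat from 0.0198 to 0.188.

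**Figure D3:**
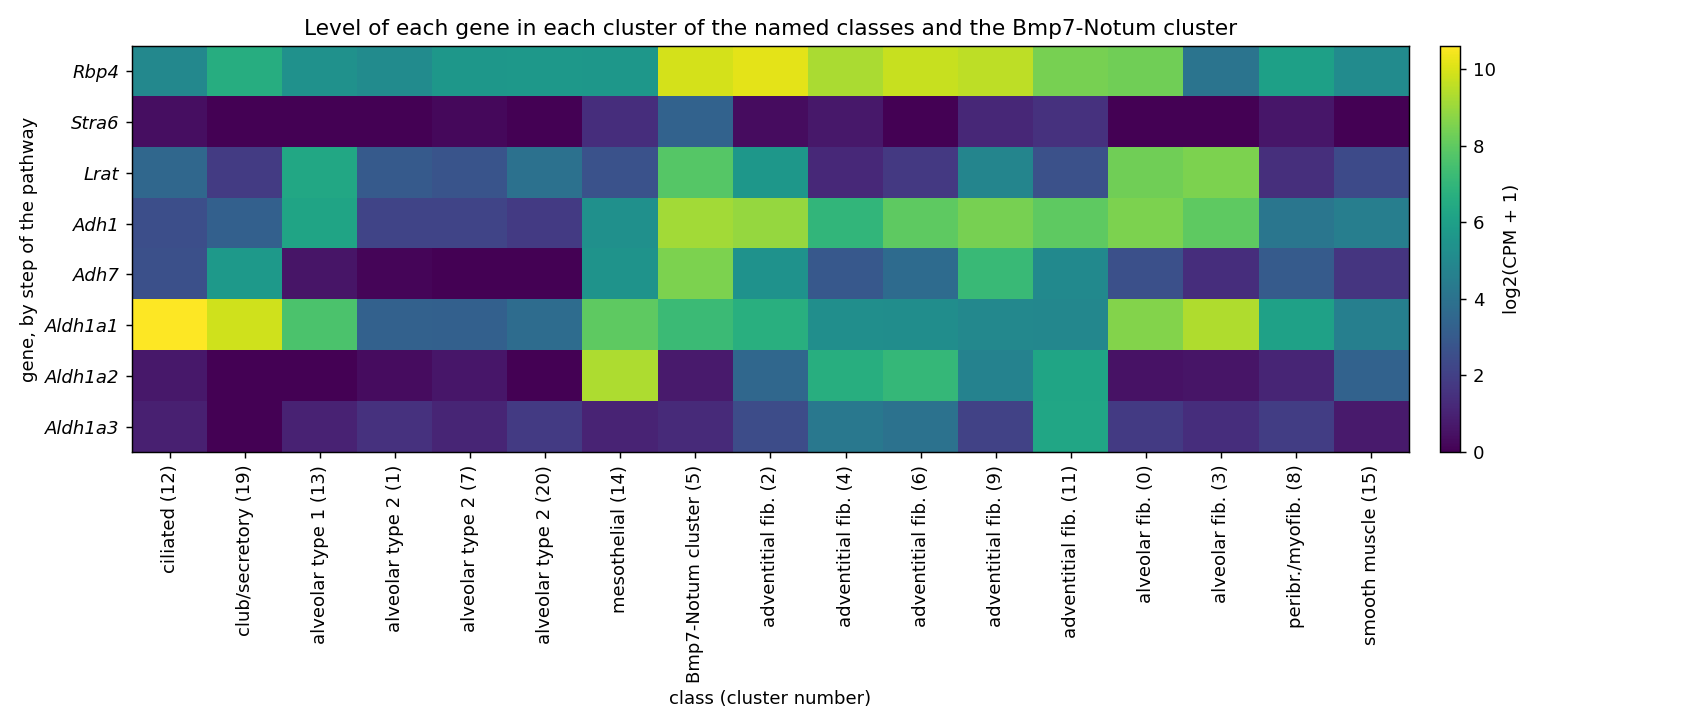
Level of each gene (rows) as log2(CPM + 1) in each cluster (columns), grouped by class with the cluster number in brackets. Within adventitial-like fibroblasts Lrat is brightest in cluster 2, Aldh1a2 in cluster 6, Adh7 in cluster 9 and Aldh1a3 in cluster 11.

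The adventitial-like class was not uniform. Cluster 2, led by Bpifa2 and Fmod, scored on both fibroblast lists (mean marker z-scores 0.745 adventitial and 0.463 alveolar). It had the highest Rbp4, 1155 CPM, and Adh1, 487 CPM, and the lowest Aldh1a2 of the adventitial-like clusters, 10.7 CPM, with 48.4 CPM of Lrat. Cluster 4, led by Dio2 and Smoc1, had 98.1 CPM of Aldh1a2, 1.33 of Lrat and the least Adh1 of the adventitial-like clusters, 125 CPM. Cluster 6, led by Ccl8 and Penk, had the most Aldh1a2, 131 CPM, and 2.36 CPM of Lrat. Cluster 9, led by Dlk1 and Apod, had the most Adh7, 145 CPM. Cluster 11, led by Efhd1 and Pla1a, had the most Aldh1a3, 76.1 CPM, against 3.21 to 17.8 CPM in the other adventitial-like clusters, and the least Rbp4, 342 CPM. With cluster 2 left out, the adventitial over alveolar ratio was 3.13 for Rbp4, 0.0198 for Lrat, 194 for Aldh1a2 and 9.22 for Adh7. In 4 of the alternative clusterings 32.2% to 45.2% of the cells of cluster 2 were counted as alveolar-like, and the Rbp4 ratio was then 1.27 to 1.83, under the 2-fold bound. The Bmp7-Notum cells also moved in 2 of these: at resolution 2, which gave 1.27, 52.8% of them were counted as adventitial-like and 46.9% as alveolar-like, and with clusters and values from separate UMIs, which gave 1.83, 96.6% were counted as adventitial-like.

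The 2 alveolar-like clusters differed most in Rbp4. Cluster 0, led by Adarb1 and Cxcl14, had 314 CPM, and cluster 3, led by Slc7a10 and Bmper, had 16.1 CPM. Aldh1a1 ran the other way, with 397 CPM in cluster 0 and 651 CPM in cluster 3. Lrat differed less, with 319 and 361 CPM.

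The Bmp7-Notum cluster combined transport, storage and oxidation genes with Aldh1a1 of the synthesis genes. Rbp4, Lrat, Adh1 and Aldh1a1 were also found together in alveolar-like fibroblasts, at 210, 334, 326 and 486 CPM, but with 3.86 CPM of Adh7. Against adventitial-like fibroblasts Stra6 was 14.4-fold (8.11 to 27.1), Lrat 12.6-fold (11.3 to 14), Adh7 9.73-fold (9.0 to 10.5) and Aldh1a1 2.83-fold (2.59 to 3.09) higher. Aldh1a2, at a ratio of 0.0102 (0.00277 to 0.0261), and Aldh1a3, at 0.0738 (0.0317 to 0.147), were lower. These were 4 of 8 members higher and 2 lower, where 5.10% and 6.56% of 12127 genes were. Against alveolar-like fibroblasts, Adh7 was 93.8-fold (68.9 to 131), Rbp4 4.67-fold (4.44 to 4.90) and Stra6 at least 32.0-fold higher, by a floor of 3 UMIs over the alveolar-like class. Aldh1a1 was lower there, at 0.305 (0.284 to 0.329), and Lrat stood at 0.675 (0.633 to 0.720). This made 3 of 7 members higher and 1 lower, where 6.39% and 8.44% of 11399 genes were. In the cluster, adventitial and alveolar markers stood at 35.6% and 40.1% of their level in their own class. The comparisons of the cluster with these fibroblast classes were not planned and were added after the data were seen.

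Mesothelial-like against fibroblast-like cells. Aldh1a2 was 13.3-fold (12.3 to 14.3) higher in mesothelial-like cells, 625 CPM, than in the adventitial-, alveolar- and peribronchial-like fibroblasts together, 47.1 CPM. Lrat (ratio 0.0511, 0.0245 to 0.0941), Rbp4 (0.0817, 0.0656 to 0.100), Adh1 (0.136, 0.107 to 0.172) and Aldh1a3 (0.0789, 0.00953 to 0.286) were lower. Aldh1a1 had a ratio of 1.44 (1.31 to 1.59). Adh7 had a ratio of 1.63 (1.28 to 2.05), but 0.624 to 0.682 in the 3 alternatives that counted most Bmp7-Notum cells as fibroblasts. So 1 of 7 members had a ratio of 2 or more and 4 a ratio of 0.5 or less, where 15.3% and 17.9% of 12853 genes had. Against adventitial-like fibroblasts alone, mesothelial-like cells had 8.97 times (8.32 to 9.66) the Aldh1a2 and 4.81 times (4.32 to 5.34) the Aldh1a1. This last comparison was added after the data were seen.

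Epithelial-like against mesenchymal-like cells. Mesenchymal-like cells were the adventitial-, alveolar- and peribronchial-like fibroblasts with the smooth muscle-like and mesothelial-like cells. The Bmp7-Notum cluster, with 61.1% of the Adh7, 21.4% of the Lrat and 18.2% of the Rbp4 UMIs, was in neither set. Epithelial-like cells had less of 6 of the 7 members measured, at most 0.5-fold, where 25.2% of 14369 genes were. The ratios were 0.00472 (0.00204 to 0.00931) for Aldh1a2, 0.0364 for Adh1, 0.0787 for Rbp4, 0.104 for Aldh1a3, 0.134 for Lrat and 0.229 for Adh7. With called doublets kept they were higher, at 0.0622 for Aldh1a2, 0.142 for Adh1, 0.151 for Rbp4, 0.159 for Aldh1a3, 0.281 for Lrat and 0.396 for Adh7, all still under 0.5. Over all alternatives the Adh7 ratio ranged from 0.0914 to 0.396. The exception was Aldh1a1, at 332 CPM in epithelial-like and 173 CPM in mesenchymal-like cells, a ratio of 1.92 (1.86 to 1.99). No member reached 2-fold, where 19.3% of genes did, but Aldh1a1 passed it under 4 alternatives, with up to 2.71-fold, and had a ratio of 1.04 by the mean of per-cell CPM. The epithelial level of Aldh1a1 rested on the airway: ciliated-like and club-like cells, 312 of the 2174 epithelial-like cells, held 7340 of its 7850 epithelial UMIs. Adh7 was also uneven over the epithelium, with 124 of its 143 epithelial UMIs in the 74 club-like cells. Its level there, 52.5 CPM (43.6 to 62.6), was above the 26.4 CPM (24.8 to 28.0) of mesenchymal-like cells.

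**Figure D4:**
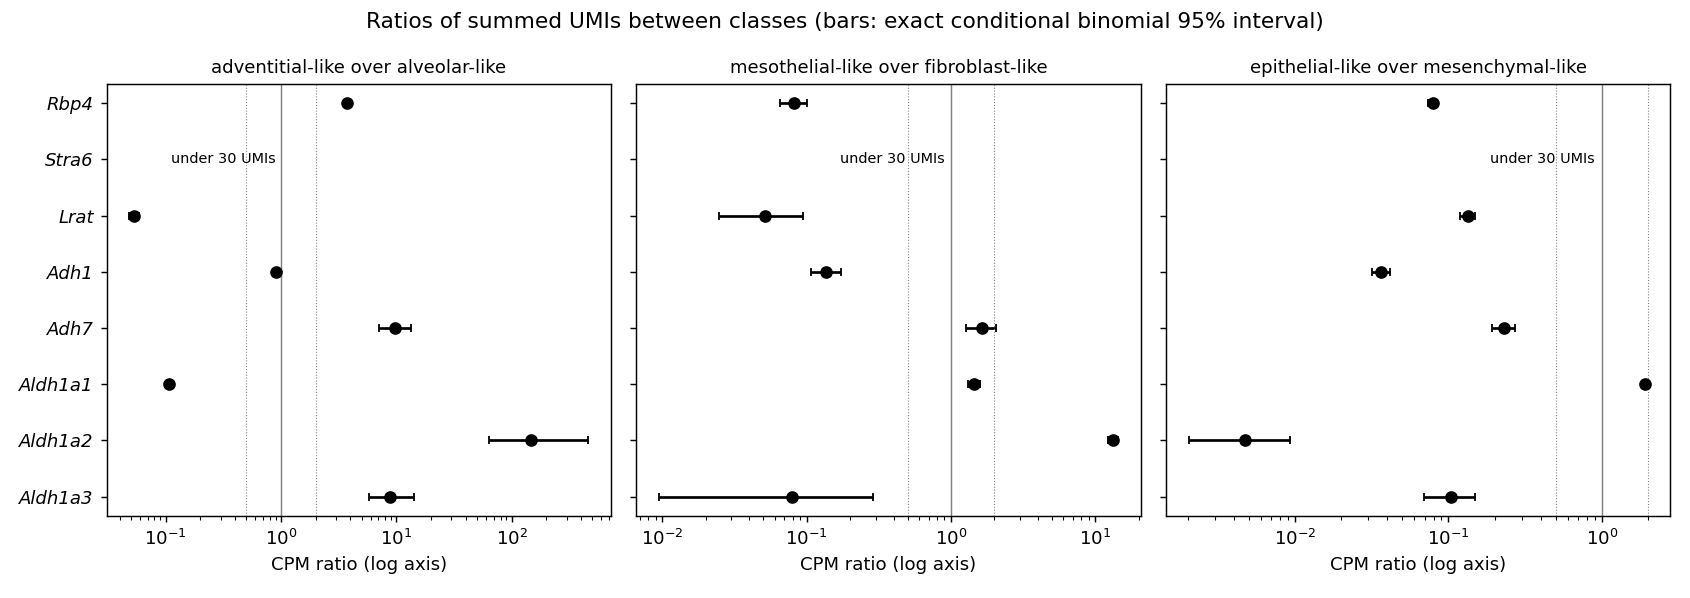
Ratio of CPM between classes for each gene on log axes, in 3 comparisons, with exact conditional binomial 95% intervals. Solid lines mark a ratio of 1 and dotted lines the 2-fold and 0.5-fold bounds. Aldh1a2 has the highest ratio in the first 2 panels, 148 and 13.3, and the lowest in the last, 0.00472.

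Transcripts in the same cell. In adventitial-like fibroblasts Lrat and Aldh1a2 lay mostly in different cells. Of the 218 cells with an Lrat UMI, 5.05% (2.55% to 8.85%, exact binomial) also had Aldh1a2, against 31.5% (29.7% to 33.4%) of the cells without Lrat, at median depths of 9091 and 9082 UMIs. Both genes differed between adventitial-like clusters, as given above. In alveolar-like fibroblasts 86.5% of cells with Lrat also had Aldh1a1, against 72.5% of cells without it, at median depths of 5430 and 4923 UMIs. Rbp4 and Lrat divided there, with Rbp4 in 21.3% of cells with Lrat and in 37.5% of cells without. In the Bmp7-Notum cluster 315 of 653 cells had both Adh7 and Lrat, and 221 had both Lrat and Aldh1a1. Of its cells with Adh7, 58.6% (54.3% to 62.7%) had Lrat, and of those without, 53.0% (43.5% to 62.4%), with overlapping intervals. Of its cells with Lrat, 58.8% had Aldh1a1, and of those without, 58.5%. In mesothelial-like cells 155 of 208 had both Aldh1a1 and Aldh1a2.

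Reporter-high against reporter-low cells. Cells with at least 1000 CPM of the reporter transcript Egfp were paired, within their cluster, with the cell of nearest depth among those with under 200 CPM. Median depth was then 5653 UMIs in reporter-high and 5640 in reporter-low alveolar-like cells, 8790 and 8488 in mesothelial-like cells, but 10117 and 9002 in adventitial-like cells, where the depths remained unequal. Among 562 pairs of alveolar-like fibroblasts Rbp4 stood at 373 CPM in reporter-high and 180 CPM in reporter-low cells, a ratio of 2.07 (1.88 to 2.29). Without matching it was 2.16 (1.97 to 2.37) within cluster 0 and 2.66 (1.47 to 4.70) within cluster 3. Lrat was lower in reporter-high cells, 295 against 354 CPM (ratio 0.833, 0.766 to 0.907), as was Aldh1a1, 398 against 467 CPM (0.852, 0.792 to 0.916). Adventitial markers stood at 3227 CPM in the reporter-high and 3061 CPM in the reporter-low cells of these pairs, and alveolar markers at 13967 and 14513 CPM. Among 828 pairs of adventitial-like fibroblasts Adh1 was lower, 274 against 325 CPM (0.842, 0.796 to 0.891), and Rbp4 was 816 against 745 CPM (1.10, 1.06 to 1.13). The Rbp4 difference was not shared by all adventitial-like clusters: without matching its ratio was 1.14 to 1.25 within clusters 2, 4 and 11, 0.981 (0.893 to 1.08) within cluster 9 and 0.895 (0.837 to 0.958) within cluster 6. Among 92 mesothelial-like pairs Aldh1a2 was 709 CPM in reporter-high and 555 CPM in reporter-low cells (1.28, 1.13 to 1.45). Adventitial markers ran the other way in these pairs, at 3726 CPM in reporter-high and 8077 CPM in reporter-low cells, and their part in the result was not tested.

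Other genes of the pathway. Of the wider list, 37 genes could be compared between adventitial-like and alveolar-like fibroblasts. Of these, 2 had a ratio of 2 or more and 6 of 0.5 or less, where 9.88% and 10.3% of all genes had, and their median was 0.885, against 0.918 for all genes. Rarb, a retinoic acid receptor whose own gene is known to respond to retinoic acid, had 4.07 CPM in adventitial-like and 0.659 CPM in alveolar-like fibroblasts (6.17-fold, 2.89 to 15.7), and Scarb1, a lipid uptake receptor, was the other. Ces1d, a carboxylesterase, had 25.1 CPM in adventitial-like and 545 CPM in alveolar-like fibroblasts (0.0460, 0.0423 to 0.0499). Hoxa5, Dgat2, Lipe, Rxrg and Crabp1 were the other lower ones. Cyp26b1, which breaks down retinoic acid, had 2.07 CPM in each.

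In the Bmp7-Notum cluster against adventitial-like fibroblasts 3 of 35 wider genes were higher, namely Rarb, Rxrg and Tgm2, and 1 was lower, Lpl, where 5.10% and 6.56% of all genes were. Tgm2, a transglutaminase known to respond to retinoic acid, had 337 CPM in the cluster, 121 in adventitial-like and 134 in alveolar-like fibroblasts. Rarb had 9.22 CPM in the cluster.

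In mesothelial-like against fibroblast-like cells 12 of 38 wider genes were higher and 9 lower, where 15.3% and 17.9% of all genes were. Their median ratio was 1.02, and that of all genes 1.04. Lrp2, or megalin, which takes up RBP4 in kidney, had 216 CPM in mesothelial-like and 1.13 CPM in fibroblast-like cells. Rdh10, which oxidises retinol, had 35.1 CPM in mesothelial-like and 16.1 CPM in fibroblast-like cells. Dhrs3, which reduces retinaldehyde back to retinol, had 16.2 CPM in mesothelial-like and 71.8 CPM in fibroblast-like cells. Rarres2, which encodes chemerin, had 13913 CPM in mesothelial-like and 1554 CPM in fibroblast-like cells.

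In epithelial-like against mesenchymal-like cells 13 of 42 wider genes were higher and 15 lower, where 19.3% and 25.2% of all genes were. Their median ratio was 0.778, and that of all genes 0.871. Dhrs3 had 143 CPM in epithelial-like and 67.9 CPM in mesenchymal-like cells. Fabp5, a lipid chaperone that can carry retinoic acid, had 1127 CPM in epithelial-like and 33.1 CPM in mesenchymal-like cells. Rbp2, a retinol carrier known from intestine, had 28.7 CPM in ciliated-like cells and at most 0.693 CPM in the other classes named above. Rarb was also highest in ciliated-like cells, at 33.5 CPM.

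Genes with a similar pattern. Likeness was measured as Pearson's r of log2(CPM + 1) over the 22 clusters of at least 50 cells, which share 1 library, among 13029 genes, and is a description. Nearest to Lrat were Col13a1 (0.91), Nrcam (0.91) and Cxcl14 (0.90). Nearest to Adh1 were Clmp (0.97), Mmp2 (0.96) and Vcam1 (0.96), and to Aldh1a2 Wnt2b (0.90), Lrrn4cl (0.87) and Tpbgl (0.86). Rbp4 was most like Ephb2 (0.90), Aldh1a3 most like Sfrp4 (0.89) and Adh7 most like Cldn1 (0.79). Aldh1a1 was most like Fam13a (0.79).

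The authors' own clusters. The authors' deposited table gives log2 fold changes for 17 clusters of these cells, numbered differently, and does not say what each cluster was set against. In the authors' deposited table Aldh1a2 had its highest log2 fold change, 4.49, in the authors' cluster 15, where Msln (9.17) and Upk3b (9.72) were also highest. Lrat was highest in the authors' cluster 1 of the authors' deposited table, with a log2 fold change of 2.99, together with Npnt (3.28) and Inmt (2.04). Adh7 was highest in clusters 7 and 11 of the authors' deposited table, with log2 fold changes of 2.52 and 2.32, the clusters with the highest values of Bmp7 and Notum. The log2 fold change of Rbp4 in the authors' deposited table was 1.56 in cluster 7, 1.38 in cluster 11 and 1.03 in cluster 2, where Pi16 was highest. Aldh1a1 was highest in cluster 13 of the authors' deposited table, with a log2 fold change of 3.26, as was Tmem212, a ciliated cell gene, and next in cluster 8, 1.69, with Scgb1a1. Stra6 differed from the division above. Its highest log2 fold change in the authors' deposited table, 2.12, was in cluster 3, where Aldh1a3 was also highest (2.13). Next for Stra6 in the authors' deposited table were cluster 17, with a log2 fold change of 2, and cluster 11, with 1.82.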

How the data were processed

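Cells sorted as CD45neg CD31neg from mouse lung were profiled with a 3′ single-cell kit; the labels differ on its version. Per the submitters' processing notes, reads were processed with Cell Ranger 3.0.0 on mm10, and the matrix they deposited is, per the file headers, 1 table of raw UMI counts in which the 4 samples are pooled. Per the authors' deposited run summary, sequencing saturation was 51.00 percent. The authors' deposited cluster table gives log2 fold changes and p-values, and only its log2 fold changes were used, as a description.

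A barcode passed with 500 or more genes and a mitochondrial share of UMIs of 10% or less (9391 of 11118 did), and 458 called doublets (4.88%) were removed. Counts were scaled to 10000 a cell, and 2000 variable genes without retinoid, mitochondrial, ribosomal or reporter genes gave 30 components, 15 neighbours and 23 Leiden clusters (resolution 1, scanpy 1.11.5). A cluster took the name of the marker list with the highest mean z-score, if 3 markers were detected in 25% of its cells, and stayed unnamed at a z-score of 0.5 or less, where another list led its top 10 genes, or where it was shallow. Heart muscle genes were added to the lists after the clusters were seen. Genes with at least 30 UMIs in the classes compared were called at 2-fold or 0.5-fold. The interval code was tested on simulated data. The members, lists and thresholds were chosen with earlier results of these data known. The genes named are the 8 members, wider-list genes past the bounds or completing a step, and the 3 most alike genes of each member. Bcmo1 of the wider list was not matched. One other gene of that list is counted in its totals but not reported here. Genes annotated on the opposite strand overlap Stra6, Lrat, Adh1, Adh7, Aldh1a1 and Aldh1a2, and Gm16131 overlaps Stra6 on its own strand. Whether counting used strand is not given in the sources used here.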

Additional observations from a re-analysis of the deposited data

How the results depend on the processing

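Counts of members past the bounds stayed within 1.5 times the reported count in 47 recomputed values and moved in 5. The number of members at least 2-fold higher in epithelial-like than in mesenchymal-like cells was 1, Aldh1a1, and not 0, with the looser cell filter (at least 200 genes, at most 20% mitochondrial), at resolution 2, with retinoid genes allowed in clustering, and with clusters and values taken from separate UMIs. The number at least 2-fold higher in mesothelial-like than in fibroblast-like cells was 2, Stra6 joining Aldh1a2, with no UMI minimum. Of single ratios, 90 stayed within their counting interval and 79 moved. Counting the Bmp7-Notum cluster as adventitial-like and leaving out cluster 2 were chosen after seeing the data. With the Bmp7-Notum cluster counted so, the adventitial over alveolar ratio was 0.166 for Lrat and 24.8 for Adh7, and with doublets kept the epithelial over mesenchymal ratio of Aldh1a2 was 0.0622. The causes were not tested. Depth limits Stra6, Aldh1a3 and every level resting on a few UMIs, and no value has a replicate. No paired analysis was possible because the 4 labels form 1 group and the cells carry no sample.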

Other observations

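Some cells outside the named classes carried the genes at high levels. A shallow cluster of 149 cells, with a median of 1739 UMIs, had 529 CPM of Rbp4 (449 to 619), 410 CPM of Aldh1a1 (341 to 490) and 237 CPM of Lrat (185 to 300), and no UMI of Aldh1a2. A cluster of 75 cells with markers of both alveolar type 2 cells and alveolar fibroblasts had 350 CPM of Aldh1a1 and 182 CPM of Lrat. A cluster of 307 cells, led by heart muscle genes such as Sln and Mb with adventitial markers, had 286 CPM of Rbp4, 34.8 CPM of Aldh1a2 (27.6 to 43.2) and 13.7 CPM of Aldh1a3 (9.39 to 19.4). The 41 proliferating-like cells had 53.7 CPM of Adh7 (38.2 to 73.4) and 311 CPM of Rbp4.

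Cyp26b1, which breaks down retinoic acid, was low in the named fibroblast classes but had 10.7 CPM in the cluster led by heart muscle genes and 27.1 CPM in the shallow cluster.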
